A study of Homo sapiens with 6 samples.

Results

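HIF1A, the oxygen-regulated subunit of hypoxia-inducible factor 1, was examined together with 9 genes of the core hypoxia response: ADM, VEGFA, CA9, NDRG1, ANKRD37, BNIP3, BNIP3L, EGLN1 and EGLN3. The 10 genes were taken by symbol from the deposited tables, which hold 58735 genes, and each symbol matched 1 row. Every library was made from MDA-MB-231, a line of human breast cancer cells of the triple-negative kind, labelled as wild type (WT) and grown in high-glucose DMEM with serum. The cells were stained with PKH26, a membrane dye that is diluted at each division, and sorted after a chase of 12 days. Slow-cycling cells (SCC, labelled PKH26hi) were the brightest 1%, and rapid-cycling cells (RCC) had moderate fluorescence per the protocol text but are labelled PKH26lo. Each group had 3 libraries described as biological replicates. The labels name no exposure to low oxygen in either group, and no drug or transgene. Both groups are sorted fractions of 1 cell line, so they model dye retention in that line only.

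HIF1 is a dimer of an alpha subunit and ARNT. In oxygenated cells the prolyl hydroxylases of the EGLN family mark the alpha subunit for capture by VHL and degradation, and in hypoxia the subunit is spared, enters the nucleus and binds short DNA elements near its target genes. HIF1A is therefore controlled largely at the level of the protein, which RNA-seq does not measure, whereas its targets respond in RNA. Among those targets, ADM and VEGFA encode secreted vascular peptides, CA9 a surface enzyme that handles acid, NDRG1 a stress-response protein, BNIP3 and BNIP3L mitochondrial proteins of mitophagy, and EGLN1 and EGLN3 hydroxylases that feed back on HIF.

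Summed counts ranged from 17655855 to 27831824 per library. Within a group, each pair of libraries differed by more than sampling noise (chi-square over its degrees of freedom, 3.31 to 28.0). The highest values involved SCC replicate 1, whose deviation from the other libraries moved with GC content. In the lowest GC decile of genes its median log2 deviation from the mean of all libraries was -0.24, and in the highest decile it was 0.41. The line's own genes VIM, CD44, KRT18 and AXL together took 2001 to 2227 CPM (counts scaled to library size with the trimmed mean of M values, TMM). Of 5 genes listed as low or absent in the line, PGR was at 0 to 3 counts per library, CDH1 at 0 to 10 and ESR1 at 5 to 16, whereas EPCAM was at 75 to 132 and ERBB2 at 1314 to 2868. The 5 together were at 75.5 to 112 CPM in SCC and 79.8 to 81.1 in RCC. Of the leukocyte and blood markers, PTPRC had 53 counts in SCC replicate 1 and 3 to 15 in the other libraries, and CD3E had 1 count in 1 library and 0 in the others. LYZ had 0 to 13 counts per library, CD14 5 to 14 and HBB 0 to 2. Markers of endothelial cells and fibroblasts together were at 26.8 to 31.8 CPM in SCC and 21.8 to 25.5 in RCC, and their part in the results was not tested.

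The element bound by HIF has the core ACGTG or GCGTG. It was searched on both strands from 250 bases before to 50 after the RefSeq gene start (build GRCh38.p14). The sequences below show where the core lies in genes that were higher in SCC and in genes that were not. Capitals mark the core, which reads CACGT or CACGC where it lies on the opposite strand. For CA9, a second stretch shows TGANTCA, the element of AP-1, the factor in the series title.

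ADM: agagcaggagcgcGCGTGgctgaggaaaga

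CA9: ctcgtttccaatgCACGTacagcccgtaca

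CA9 (AP-1 element): agggcgctctgTGAGTCAgcctgctcccct

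ANKRD37: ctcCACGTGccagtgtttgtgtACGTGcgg

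BNIP3: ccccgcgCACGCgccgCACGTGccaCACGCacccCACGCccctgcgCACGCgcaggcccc

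EGLN1: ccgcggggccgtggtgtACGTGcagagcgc

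HIF1A: ttggctgagagcgGCGTGggctggggtggg

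The stretches lie at chr11:10304959-10304988 (plus strand) for ADM, chr9:35673897-35673926 and chr9:35673840-35673869 (plus) for CA9, and chr4:185396676-185396705 (plus) for ANKRD37. Those of BNIP3, EGLN1 and HIF1A lie at chr10:131982014-131982073 (minus), chr1:231422288-231422317 (minus) and chr14:61695296-61695325 (plus). The core starts 101 bases before the RefSeq gene start in ADM and 18 bases before it in CA9. The RefSeq start can differ from the start of the deposited gene span given below for each gene. In ADM, CA9, ANKRD37 and EGLN1 the stretch with the core lies inside the deposited span. In BNIP3 and HIF1A it lies before the span. BNIP3 holds 6 matches in 1 stretch, of which a pair overlap in CACGTG. ANKRD37 holds 3, a pair of them overlapping in the same way. RefSeq windows were matched for 7 of the 10 genes, 8 windows in all, and 6 of these 8 held the core. VEGFA, NDRG1 and BNIP3L had no matched window and were not searched. Of all 35116 windows of this length, 48.4% held it. TGANTCA was found in 1 of the 8 windows, that of CA9, and in 7.71% of all windows. The single EGLN3 window and 1 of the 2 HIF1A windows held neither element. The core was thus present in genes that were higher in SCC (ADM, CA9) as well as in genes that were not called (ANKRD37, BNIP3, EGLN1, HIF1A).

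Of the 10 genes, 4 were higher in SCC and 0 were lower. A gene was called where its p from the quasi-likelihood test of edgeR, adjusted over 15881 tested genes by the method of Benjamini and Hochberg, was under 0.05. ADM and CA9 were each 2.56-fold higher, NDRG1 1.38-fold and VEGFA 1.31-fold. Over all tested genes 1.69% were called higher and 0.378% lower, 2.07% in either direction. HIF1A, EGLN1, EGLN3, BNIP3, BNIP3L and ANKRD37 were not called. The same 4 genes passed an unadjusted p under 0.05, as did 19.7% of all tested genes, and 0 of the 10 were lower at that threshold or with DESeq2 or limma. Without SCC replicate 1 the same 4 genes were called. The 4 genes have GC contents of 55.6% to 58.8%, on the side on which that library was raised. With an offset for GC content in each library all 4 were called, at log2 fold changes of 1.21 for ADM, 1.20 for CA9, 0.37 for NDRG1 and 0.28 for VEGFA. All 10 genes passed the filter on low counts. In 5 of them, the 4 called genes and EGLN1, every SCC library lay above every RCC library, which held for 14.4% of all tested genes. The reverse held for 0 of the 10 and for 13.4% of all tested genes, so that in 27.8% of these the groups did not overlap. The median log2 fold change of the 10 was 0.21, against 0.00 over all tested genes, and it was above 0 in 9 of the 10 and in 50.5% of all tested genes. In bulk RNA, more RNA per cell and more cells that express a gene cannot be told apart.

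**Figure D1:**
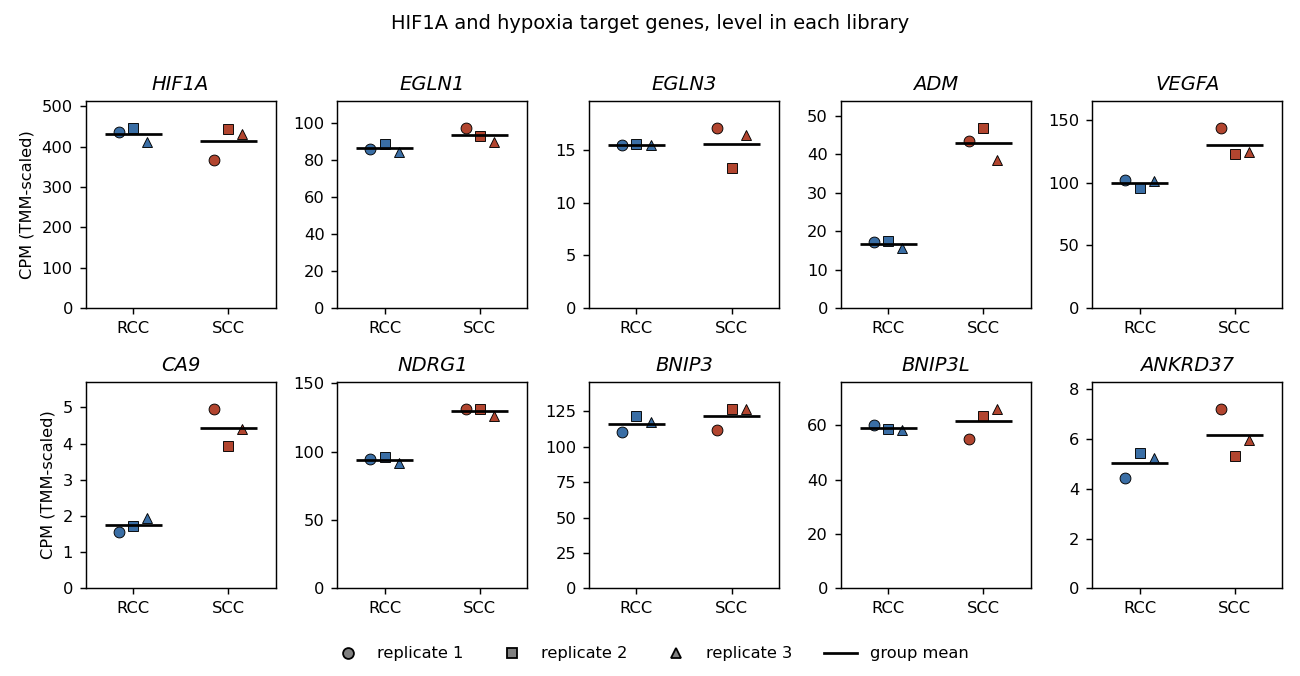
Level of each gene in each library, in TMM-scaled CPM on linear axes from 0; blue points are RCC, red points SCC, marker shape gives the replicate number and the line the group mean. SCC and RCC are widely separated for ADM (38.5 to 46.8 against 15.7 to 17.3 CPM) and CA9, separated by less for NDRG1 and VEGFA, and overlap for HIF1A, EGLN3, BNIP3, BNIP3L and ANKRD37.

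HIF1A (ENSG00000100644, chromosome 14, 61695513 to 61748259) was the most abundant of the 10 genes. It stood at 367, 442 and 432 CPM in SCC replicates 1 to 3 and at 437, 445 and 410.4 CPM in RCC replicates 1 to 3. The groups overlapped, and the lowest library was SCC replicate 1. The SCC mean was 414 ± 41.2 CPM and the RCC mean 431 ± 18.3 CPM (SD, n = 3), a log2 fold change of -0.06 (standard error 0.080, adjusted p 0.699 by edgeR). HIF1A has a GC content of 38.9%, close to the 38.2% median of the GC decile in which SCC replicate 1 was low. Without that library the log2 fold change was 0.02, and with an offset for GC content it was 0.07, so the sign was not stable. Exons of HIF1A overlap those of HIF1A-AS1 on the opposite strand, which had 0 to 8 counts per library. HIF1A-AS2, an antisense transcript in a span that runs past the end of HIF1A, averaged 1.57 ± 0.18 CPM in SCC against 1.98 ± 0.52 in RCC without being called (log2 fold change -0.32, adjusted p 0.528).

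EGLN1 (ENSG00000135766, chromosome 1, 231363751 to 231425044) encodes the main hydroxylase acting on HIF in oxygenated cells. Its levels were 96.96, 92.9 and 89.4 CPM in SCC and 85.9, 88.2 and 84.3 CPM in RCC. Every SCC library lay above every RCC library, but by a small margin. The log2 fold change of 0.11 (standard error 0.068) was not past the threshold (adjusted p 0.371). EGLN3 (ENSG00000129521, chromosome 14, 33924231 to 34462774), a hydroxylase that is itself strongly induced in hypoxia in many cell types, was at 17.1, 13.3 and 16.5 CPM in SCC and 15.5, 15.6 and 15.5 CPM in RCC. Its SCC values lay on both sides of the RCC values. Its log2 fold change was 0.01 (standard error 0.115, adjusted p 0.960), and its sign changed with scaling, turning to -0.01 with upper-quartile scaling.

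ADM (ENSG00000148926, chromosome 11, 10304680 to 10307397) encodes adrenomedullin, a secreted peptide that dilates vessels. It was at 43.5, 46.8 and 38.5 CPM in SCC and at 17.3, 17.3 and 15.7 CPM in RCC. The lowest SCC library was more than 2-fold above the highest RCC library. The means were 42.9 ± 4.19 and 16.8 ± 0.92 CPM (SD, n = 3), a log2 fold change of 1.35 (standard error 0.099, adjusted p 3.4e-05 by edgeR). By log2 fold change, ADM ranked 122 of 15881 tested genes, next to CA9 at 121. It stayed called in each of the 6 fits that left out 1 library, with log2 fold changes of 1.27 to 1.42.

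VEGFA (ENSG00000112715, chromosome 6, 43770184 to 43786487) encodes the principal growth factor of blood vessels. Levels were 143, 123 and 124 CPM in SCC and 102, 95.5 and 101 CPM in RCC. The groups did not overlap, and SCC replicate 1 was the highest library. The SCC and RCC means were 130.2 ± 11.5 and 99.6 ± 3.66 CPM (SD, n = 3; log2 fold change 0.39, standard error 0.078, adjusted p 0.032 by edgeR). This call was lost in 4 fits that left out 1 library. The adjusted p was 0.071 without SCC replicate 3, and 0.145, 0.171 and 0.149 without RCC replicates 1, 2 and 3. The log2 fold change in these 4 fits was 0.35 to 0.41. VEGFA stayed called without SCC replicate 1 (log2 fold change 0.31, adjusted p 2.3e-04) and without SCC replicate 2 (0.41, adjusted p 0.019).

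CA9 (ENSG00000107159, chromosome 9, 35673856 to 35681159) encodes carbonic anhydrase 9, an enzyme of the cell surface that is widely used as a marker of hypoxic tumour cells. In CPM it was the lowest of the 10 genes in both groups, with 134, 77 and 93 counts in SCC and 36, 36 and 35 counts in RCC. In CPM these were 4.97, 3.94 and 4.41 against 1.56, 1.72 and 1.96. The groups did not overlap, and the lowest SCC library was 2-fold above the highest RCC library. The log2 fold change of 1.35 had a standard error of 0.201, wider than that of ADM, and an adjusted p of 0.0055. On the log2(FPKM + 1) scale, which understates changes of low genes, it was 0.83 with limma. There CA9 was called with the filter on low values (adjusted p 0.012) and not without it (0.074). Exons of CA9 overlap those of ARHGEF39 on the opposite strand. ARHGEF39 averaged 13.5 ± 0.94 CPM in SCC against 14.8 ± 2.28 in RCC (SD, n = 3) and was not called (log2 fold change -0.13, adjusted p 0.588).

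NDRG1 (ENSG00000104419, chromosome 8, 133237171 to 133302022), which is induced by hypoxia and by other stresses, had the tightest groups among the called genes. It stood at 132, 131 and 126 CPM in SCC and at 94.7, 95.8 and 91.7 CPM in RCC. The groups did not overlap, with means of 129.5 ± 3.14 CPM in SCC against 94.1 ± 2.08 in RCC (SD, n = 3). The log2 fold change of 0.46 (standard error 0.064) had an adjusted p of 0.0032. Without RCC replicate 3 the adjusted p was 0.056 at a log2 fold change of 0.44.

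BNIP3 (ENSG00000176171, chromosome 10, 131966455 to 131982013) and BNIP3L (ENSG00000104765, chromosome 8, 26382898 to 26505636) encode related proteins of the outer mitochondrial membrane that recruit the autophagy machinery. BNIP3 was at 112, 127 and 127 CPM in SCC and at 111, 121 and 117 CPM in RCC. BNIP3L was at 54.8, 63.3 and 66.2 CPM in SCC and at 60.1, 58.7 and 58.3 CPM in RCC. In both genes the groups overlapped and SCC replicate 1 was the lowest SCC library. Log2 fold changes were 0.07 for BNIP3 and 0.06 for BNIP3L, with standard errors of 0.075 and 0.084 (adjusted p 0.637 and 0.729). BNIP3 has many pseudogene copies, of which BNIP3P11 had the most counts, at 19 to 39 per library. How reads that fit more than 1 copy were counted is not given in the sources used here, so the BNIP3 counts are uncertain to that extent. Exons of BNIP3L overlap those of PNMA2 on the opposite strand, which averaged 18.9 ± 1.66 CPM in SCC against 16.7 ± 0.87 in RCC (SD, n = 3).

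ANKRD37 (ENSG00000186352, chromosome 4, 185396021 to 185400628) encodes an ankyrin repeat protein known mainly as a hypoxia target. It was at 7.23, 5.32 and 5.98 CPM in SCC and at 4.43, 5.45 and 5.26 CPM in RCC. SCC replicate 2 lay below RCC replicate 2, so the groups overlapped. The log2 fold change of 0.30 had a standard error of 0.168 and was not past the threshold (adjusted p 0.336). Without SCC replicate 1, the highest library, it was 0.17. Exons of ANKRD37 overlap those of UFSP2 on the opposite strand, which was at 19.96 ± 1.24 CPM in SCC against 21.8 ± 1.36 in RCC (SD, n = 3).

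**Figure D2:**
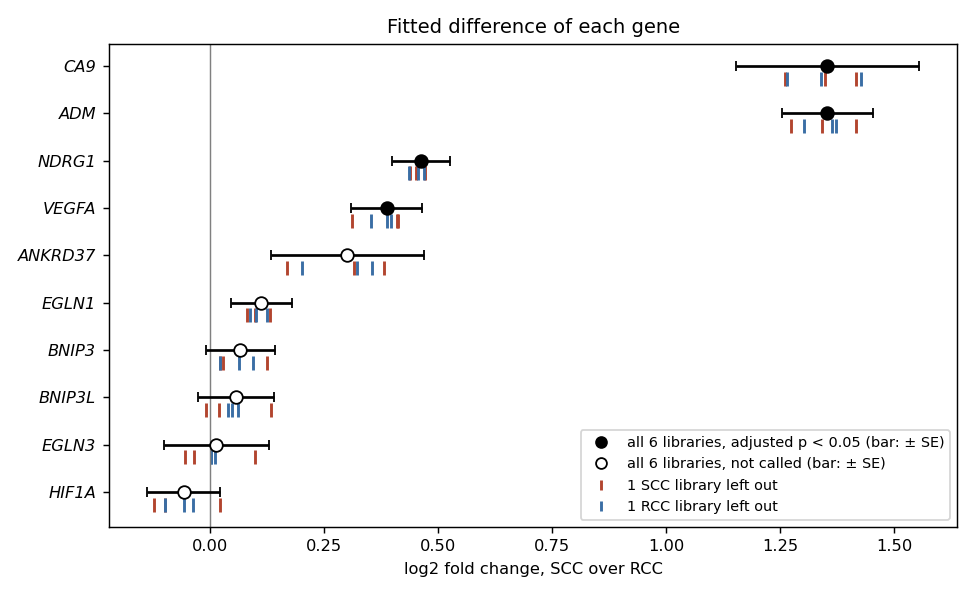
Fitted log2 fold change of SCC over RCC for each gene (points, bars ± standard error; filled where the adjusted p was under 0.05) and the same value when 1 library was left out (ticks, red for an SCC library and blue for an RCC library). CA9 and ADM lie near 1.35, NDRG1 and VEGFA near 0.4, and the ticks of HIF1A, EGLN3 and BNIP3L fall on both sides of 0.

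By level per gene length, the 4 called genes all lay below HIF1A and BNIP3 in both groups. Compared per gene length in FPKM (fragments scaled to gene length and library size, as deposited), HIF1A led in both groups at 79.8 ± 8.42 in SCC and 83.4 ± 3.81 in RCC (SD, n = 3). BNIP3 followed at 22.7 ± 1.73 and 21.8 ± 1.16. In SCC the next were ADM (15.7 ± 1.51), BNIP3L (14.2 ± 1.45), NDRG1 (13.1 ± 0.27) and EGLN1 (12.7 ± 0.44), and each of these overlapped its neighbour in the order. In RCC the order was BNIP3L, EGLN1, NDRG1, VEGFA and ADM, with no overlap between neighbours. By mean, ADM thus lay above BNIP3L in SCC and below VEGFA in RCC, where it was at 6.15 ± 0.35 FPKM. VEGFA was at 8.95 ± 0.73 FPKM in SCC and 6.88 ± 0.21 in RCC, values divided by a deposited gene length of 14431 bases that covers all its exons. EGLN3 and ANKRD37 were near 2 FPKM in both groups and overlapped each other, and CA9 was at 2.64 ± 0.29 in SCC and 1.04 ± 0.12 in RCC. The range from the highest to the lowest mean was 37.8-fold in SCC and 79.9-fold in RCC. By mean FPKM over all libraries, HIF1A ranked 456 and CA9 10351 of the 15881 tested genes.

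**Figure D3:**
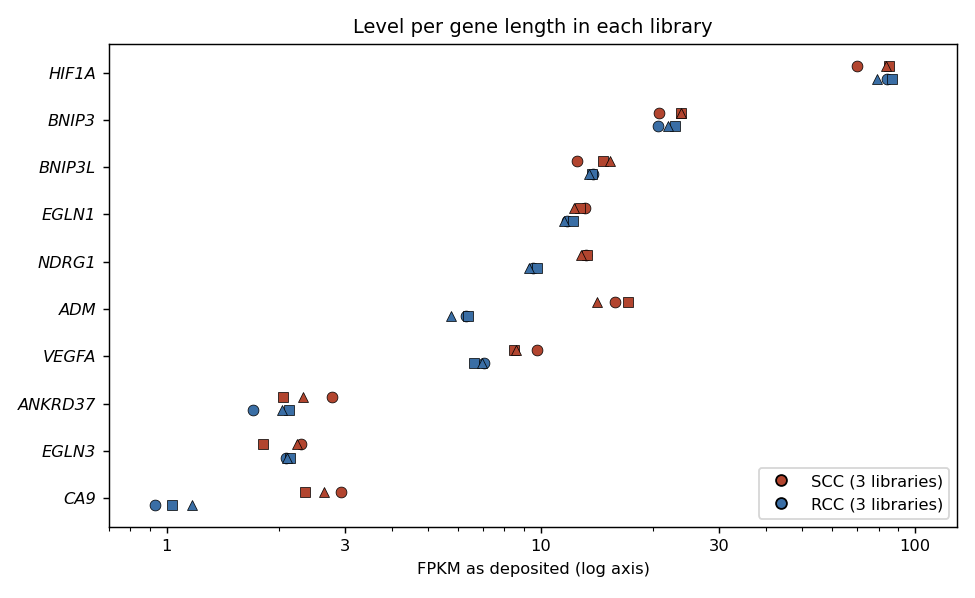
Deposited FPKM of each gene in each library on a log axis; red markers are SCC and blue markers RCC, and shape gives the replicate. HIF1A lies near 80 FPKM in both groups, and ADM moves from 6.15 FPKM in RCC to 15.7 in SCC, past VEGFA, NDRG1, EGLN1 and BNIP3L.

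HIF1A shares its role with EPAS1 (HIF2 alpha) and HIF3A. EPAS1 was at 66.7, 56.9 and 63.5 CPM in SCC and at 47.6, 46.2 and 48.3 CPM in RCC, and was called higher (log2 fold change 0.40, standard error 0.081, adjusted p 0.033). This call was lost without SCC replicate 3 (adjusted p 0.114) and without RCC replicates 1, 2 or 3 (0.182, 0.171 and 0.148). HIF3A had 0 to 2 counts per library. Of the summed FPKM of the 3 alpha subunit genes, HIF1A made up 88.6%, 91.7% and 90.6% in SCC and 92.9%, 93.2% and 92.3% in RCC. All SCC shares were below all RCC shares, with means of 90.3% ± 1.55 and 92.8% ± 0.43 (SD, n = 3) and a difference of -2.49 percentage points, which was -1.64 without SCC replicate 1. By a two-sided exact permutation test p was 0.1, and 3 libraries against 3 cannot give a smaller one.

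The shares of the hydroxylase genes were set side by side in the same way. EGLN1 made up 80.8%, 84.1% and 81.4% of the summed FPKM of EGLN1, EGLN2 and EGLN3 in SCC, and 78.0%, 79.9% and 77.7% in RCC. The SCC shares all lay above the RCC shares, a difference of 3.61 percentage points (exact permutation p 0.1). The EGLN3 share was 13.6% ± 1.52 in SCC and 13.99% ± 0.10 in RCC, and the EGLN2 share 4.28% ± 0.71 and 7.52% ± 1.18 (SD, n = 3). EGLN2, the remaining hydroxylase of the family, was at 5.53, 3.99 and 3.75 CPM in SCC and at 8.13, 6.16 and 8.11 CPM in RCC. Its groups did not overlap, yet its log2 fold change of -0.74 (standard error 0.189) missed the threshold at an adjusted p of 0.075. Without SCC replicate 1 it was called lower, at -0.95 (adjusted p 0.0013). EGLN2 shares exons with the readthrough gene RAB4B-EGLN2 and with AC008537.1, which each had 0 counts in all 6 libraries. How shared reads were assigned therefore affects its values. The shares of EGLN1 and EGLN3, and their differences between the groups, are uncertain to that extent.

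VEGFA was compared with the other VEGF ligand genes in the same way. It made up 17.2%, 17.4% and 17.2% of the summed FPKM of VEGFA, VEGFB, VEGFC, VEGFD and PGF in SCC and 17.1%, 15.9% and 17.0% in RCC. The difference of 0.56 percentage points (exact permutation p 0.1) was 0.16 without RCC replicate 2, the library with the lowest share. With counts in place of FPKM the difference was 0.27 points (exact permutation p 0.9). The level of the share depends on gene length, which was 14431 bases for VEGFA, 5962 for PGF, 2420 for VEGFC and 1545 for VEGFB. In CPM, not divided by length, VEGFA was the highest of these genes in both groups. It averaged 130.2 CPM in SCC, against 70.8 for PGF, 35.6 for VEGFC and 25.7 for VEGFB. In RCC these means were 99.6, 50.5, 31.8 and 19.9 CPM. PGF (log2 fold change 0.49, adjusted p 0.052) and VEGFB (0.38, adjusted p 0.095) had differences of similar size to that of VEGFA, and VEGFC a smaller one (0.16, adjusted p 0.284). PGF passed the threshold when SCC replicate 1 (adjusted p 0.0024 at 0.36) or SCC replicate 2 (0.012 at 0.56) was left out.

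The receptors of these ligands were mostly scarce. Of the parts of the adrenomedullin receptor, CALCRL had 2 to 8 counts per library, and RAMP2 and RAMP3 each had 1 count over all 6 libraries. RAMP1, which pairs with CALCRL to form the receptor of a related peptide, averaged 12.0 ± 1.07 CPM in SCC against 11.1 ± 1.37 in RCC (SD, n = 3). The VEGF receptor genes FLT1 and KDR had at most 5 and 20 counts per library. NRP1, a co-receptor of VEGF, averaged 259 ± 4.79 CPM in SCC against 235 ± 13.7 in RCC and was not called (log2 fold change 0.14, adjusted p 0.258). Of the 16 genes of the VEGF and adrenomedullin system, 9 were tested, 1 was called higher and 0 lower. Over all tested genes 1.69% were called higher and 0.378% lower. Taken without adjustment, p was under 0.05 for 4 higher and 0 lower genes, and for 19.7% of all tested genes. DESeq2 called 2 higher, as did the fits that left out SCC replicate 1 or 2. Of all tested genes, DESeq2 called 4.09% and those fits 6.03% and 5.16%. The called gene was ADM5, a relative of ADM, with 5.51 ± 0.70 CPM in SCC against 1.67 ± 0.41 in RCC (log2 fold change 1.73, standard error 0.219, adjusted p 0.0017). ADM5 shares exons with PRMT1 on the same strand, so its counts are uncertain. PRMT1 itself was not called (log2 fold change 0.09, adjusted p 0.476), and its sign turned with the GC offset (-0.03).

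Of the 18 other genes that sense oxygen or control HIF, 17 were tested. Of these, 2 were higher, EPAS1 and CITED2, and 0 were lower by edgeR, against 1.69% and 0.378% of all tested genes. With unadjusted p under 0.05, which 19.7% of all tested genes passed, 3 were higher and 1 lower. DESeq2 called 3 higher and 1 lower, as did the GC offset. Of all tested genes these called 4.09% and 5.31%. Limma called 0 of the list in either direction in each of its 3 settings, and 1.33%, 1.21% and 0.13% of all tested genes. The adjusted p of EPAS1 with limma was 0.079 on log2(FPKM + 1), 0.080 on log2(FPKM + 0.1) and 0.230 with no filter, and that of CITED2 0.117, 0.119 and 0.326. The median log2 fold change was -0.06. CITED2, whose product competes with HIF for the coactivators EP300 and CREBBP, was at 123, 93.0 and 100.2 CPM in SCC and at 74.6, 76.6 and 78.6 CPM in RCC (log2 fold change 0.46, standard error 0.098, adjusted p 0.041). Leaving out SCC replicate 3 (adjusted p 0.079) or RCC replicate 1, 2 or 3 (0.198, 0.161 and 0.157) ended its call. In each of these 4 fits 0 of the 17 were higher. Of all tested genes these fits called 1.21%, 0.657%, 0.687% and 0.698%.

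Other HIF targets outside glycolysis numbered 39, of which 37 were tested, 4 were higher and 0 lower. The median log2 fold change was 0.11. At an unadjusted p under 0.05, which 19.7% of all tested genes passed, 16 were higher and 1 was lower. DESeq2 called 6 higher and 0 lower. The GC offset called 10 higher, limma 4 with the filter and 1 without it. The fit without SCC replicate 1 called 8 higher, and those without RCC replicate 1, 2 or 3 called 2 each. Calls in either direction over all tested genes moved the same way, from 2.07% to 4.09% with DESeq2, 5.31% with the GC offset, 6.03% without SCC replicate 1, and 0.657%, 0.687% and 0.698% without RCC replicates 1, 2 and 3. With limma they were 1.33%, and 0.13% with no filter. DDIT4, an inhibitor of mTOR signalling, was at 29.6, 22.4 and 24.5 CPM in SCC and at 13.1, 13.95 and 13.1 CPM in RCC, a log2 fold change of 0.93 (standard error 0.118, adjusted p 0.0017). CDKN1A, a kinase inhibitor that is also a target of p53, was at 47.6 ± 1.13 against 29.6 ± 1.04 CPM (SD, n = 3), a log2 fold change of 0.69 (adjusted p 7.5e-04). LOX, an enzyme that crosslinks collagen, was at 28.0 ± 1.76 against 19.5 ± 0.69 CPM (0.52, adjusted p 0.015), and BHLHE40, a transcriptional repressor, at 74.3 ± 5.57 against 54.7 ± 1.33 CPM (0.44, adjusted p 0.015). LOX lost its call without SCC replicate 3 (0.071) or RCC replicates 1, 2 or 3 (0.108, 0.076 and 0.107), and BHLHE40 without RCC replicates 1, 2 or 3 (0.128, 0.107 and 0.090). Exons of LOX overlap those of SRFBP1 on the opposite strand.

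The 21 glycolytic genes were all tested, and 0 were called in either direction by edgeR, against 2.07% of all tested genes. At an unadjusted p under 0.05, which 19.7% of all tested genes passed, 7 were higher and 0 lower. DESeq2 called 1 higher, the fits without SCC replicates 1 and 2 called 3 and 2 higher, and limma called 0. Of all tested genes, those 2 fits called 6.03% and 5.16%. DESeq2 called 4.09%, and limma 1.33% on log2(FPKM + 1), 1.21% on log2(FPKM + 0.1) and 0.13% with no filter. The median log2 fold change was 0.13, with a range of -0.08 to 0.36. The upper end was ALDOA, which had 180 to 474 counts per library, the most in SCC replicate 1. ALDOA shares exons with AC093512.2 on the same strand, so its counts are uncertain. The smallest p was that of SLC2A3, a glucose carrier, with 47.0 ± 1.59 CPM in SCC against 38.1 ± 0.75 in RCC (SD, n = 3; log2 fold change 0.30, adjusted p 0.069). It passed the threshold without SCC replicate 1 (0.0047 at a log2 fold change of 0.33). Of the 21 log2 fold changes 18 were above 0, as were 50.5% of those of all tested genes. In 11 genes every SCC library lay above every RCC library, against 14.4% of all tested genes.

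Of 12 other mitophagy genes, all tested, 1 was higher and 0 lower, with a median log2 fold change of 0.21. With unadjusted p under 0.05, which 19.7% of all tested genes passed, 6 were higher and 0 lower. OPTN, an adaptor that links damaged mitochondria to autophagosomes, averaged 58.5 ± 1.07 CPM in SCC against 45.7 ± 0.28 in RCC (log2 fold change 0.35, adjusted p 0.028). Its call was lost without SCC replicate 3 (0.103) or RCC replicates 1, 2 or 3 (0.185, 0.161 and 0.152), which left 0 of the 12, whereas without SCC replicates 1 and 2 the list had 3 and 4 higher. These last fits called 6.03% and 5.16% of all tested genes, against 2.07% with all libraries. The fits without SCC replicate 3 and RCC replicates 1, 2 and 3 called 1.21%, 0.657%, 0.687% and 0.698%. Of 10 relatives of NDRG1, CA9 and BNIP3, 7 were tested and 1 was higher, CA11, at 5.51 ± 0.24 against 2.99 ± 0.36 CPM (log2 fold change 0.88, adjusted p 0.023). CA11 lost its call without SCC replicate 3 (0.088) or RCC replicates 1, 2 or 3 (0.127, 0.126 and 0.062). The median of these 7 was -0.08, and 0 were lower, also at an unadjusted p under 0.05 and with DESeq2.

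**Figure D4:**
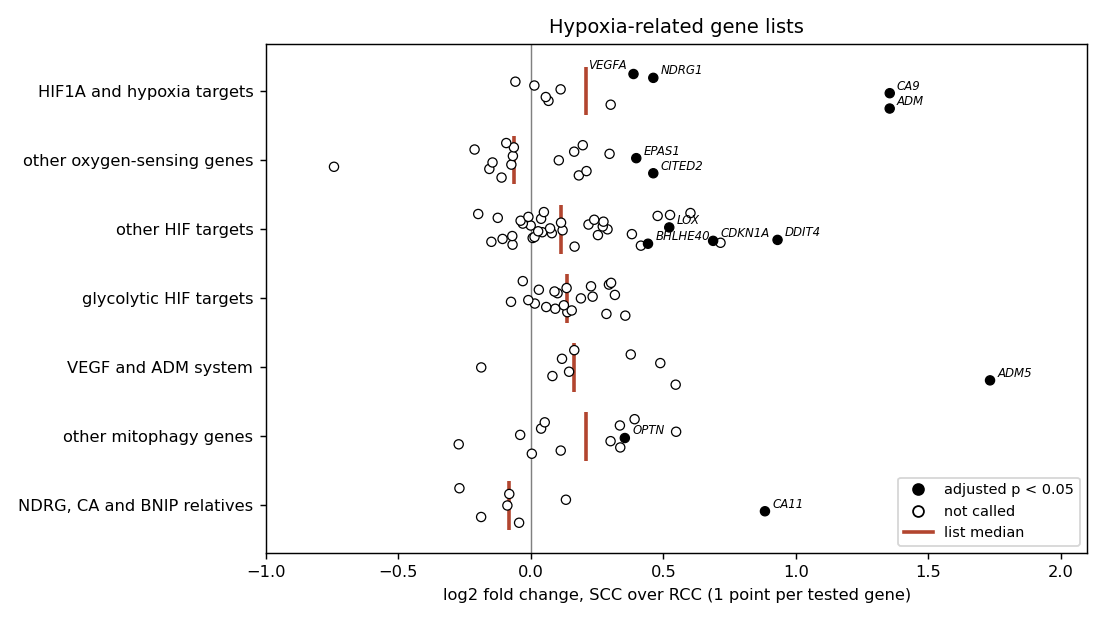
Log2 fold change of SCC over RCC for every tested gene of each list (1 point per gene; filled and named where the adjusted p was under 0.05; red line, list median). Called genes lie to the right of 0 in each list that has any, the glycolytic genes have none, and the medians run from -0.08 (relatives) to 0.21.

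The genes whose pattern over the 6 libraries was most like that of ADM were NR4A2, ZBTB10 and MIR22HG. Pearson's r of log2 CPM was 0.998, 0.996 and 0.995 among 10904 genes compared, a description of 6 libraries that fall into 2 groups. NR4A2, an orphan nuclear receptor, had a log2 fold change of 2.13, ZBTB10 one of 0.45 and MIR22HG, the host gene of a microRNA, one of 1.45 (adjusted p 4.1e-05, 0.013 and 3.1e-05 by edgeR). ZBTB10 was not called without RCC replicates 1, 2 or 3 (0.113, 0.076 and 0.113). For HIF1A the most alike were ZWILCH, RAD21 and ARPC5 (r of 0.998, 0.998 and 0.997). These had log2 fold changes of -0.08, -0.07 and -0.03, and each turned positive without SCC replicate 1 (0.02, 0.02 and 0.01) and with the GC offset (0.03, 0.03 and 0.10).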

How the data were processed

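RNA-seq counts per gene and FPKM values were deposited by the authors for 6 libraries. The submitters' processing notes name HISAT2 2.0.5 and featureCounts 1.5.0-p3, without their roles. The build, read filters and use of strand are not given in the sources used here. All 58735 rows matched GENCODE release 29 (GRCh38) by ID and position. Within each library the deposited FPKM were proportional to count over gene length (largest relative deviation 1.1e-08). The constant of each library was 0.984 to 1.02 times its summed count, and where it comes from is not given in the sources used here. For 27 genes a symbol deposited as a date was restored through its ID.

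Deposited counts were filtered (filterByExpr, minimum count 10), scaled by TMM and tested with edgeR 4.0.16 in R 4.3.3 (glmQLFit on group, quasi-likelihood F test, two-sided, Benjamini-Hochberg over 15881 genes, threshold 0.05). Standard errors are the log2 fold change over the square root of F. The script was tested on simulated data. Shares of FPKM were tested over the libraries by exact permutation (two-sided). GC content came from GENCODE transcripts, and promoters from RefSeq. Alternatives were DESeq2 1.42.0, limma 3.58.1 on FPKM, other scalings and filters, a GC offset, a replicate block, and each library left out.

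The 10 genes and all lists were chosen with earlier results of these data known. Named were all 10 genes, the called genes of each list or the one with the smallest p, the genes used in a share, and the 3 genes most like ADM and HIF1A. Other names were chosen after their values were seen. The labels do not say that replicate numbers pair the libraries, so the numbers were not taken as pairs. Deviations of same-numbered libraries from their group means correlated at -0.01, 0.02 and -0.08. With 3 libraries per group these values cannot settle whether the libraries are paired.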

Additional observations from a re-analysis of the deposited data

How the results depend on the processing

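ADM was called in all 17 alternatives, CA9 and NDRG1 in 16 each and VEGFA in 10, and each kept its direction in all 17. VEGFA lost its call in 4 fits that left out a library and with limma on log2(FPKM + 1), on log2(FPKM + 0.1) and on log2(FPKM + 1) with no filter (adjusted p 0.090, 0.089 and 0.261). Of the 10 genes, 2 were called with limma on log2(FPKM + 1) and no filter, and 2 (without RCC replicate 3) to 4 when 1 library was left out. The replicate block called the same 4 of the 10 genes and 456 genes in all, although not every library correlated best with its own number. With the block, EGLN2 was lower (-0.76, adjusted p 0.039) and PGF higher (0.48, adjusted p 0.022). The block with the GC offset called 1246 genes and added EGLN1 (log2 fold change 0.19, adjusted p 0.045).

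Against 328 called genes, counting all genes that had 1 or more reads gave 1310, the GC offset 843 (548 higher and 295 lower, against 268 and 60), DESeq2 650, and limma 166, 151 and 49 on log2(FPKM + 1), log2(FPKM + 0.1) and log2(FPKM + 1) with no filter. Leaving out 1 library gave 107 (without RCC replicate 1) to 985 (without SCC replicate 1). For these counts the cause was not tested.

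Among the genes named here, signs turned only in genes that were not called. HIF1A turned to 0.071 with the GC offset, alone or with the block, and ran from -0.12 to 0.022 when 1 library was left out. BNIP3L ran from -0.0099 to 0.13 and EGLN3 from -0.056 to 0.098 in those fits. EGLN3 also turned to -0.0056 with upper-quartile scaling and to -0.0017, -0.0046 and -0.0017 with limma on log2(FPKM + 1), log2(FPKM + 0.1) and log2(FPKM + 1) with no filter. With the GC offset, ZWILCH, RAD21 and ARPC5 turned to 0.030, 0.027 and 0.10 (with the block 0.030, 0.027 and 0.10). When 1 library was left out they ran from -0.16 to 0.019, from -0.14 to 0.024 and from -0.068 to 0.0062. PRMT1 turned to -0.031 with the GC offset and to -0.030 with the block added.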
